A study of Mus musculus with 6 samples.

Results

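Macrophages bind IgG through Fc gamma receptors, and 6 genes of this system were followed in bone marrow–derived macrophages (BMDMs) treated with heme: the activating receptors Fcgr1, Fcgr3 and Fcgr4, the inhibitory receptor Fcgr2b, the signaling chain Fcer1g and the neonatal Fc receptor Fcgrt. They were chosen by name, with earlier results of these data known, and all 6 were found among the 25700 gene identifiers of the count data. Bone marrow came from C57BL/6J mice aged 8 to 10 weeks and was cultured with M-CSF at 100 ng/ml; 300 μM heme-albumin (heme) or its vehicle albumin (control) was added on day 3, and RNA was taken on day 7 for bulk RNA-Seq. Each group held 3 libraries, each of macrophages from 1 mouse, and all RNA had an integrity number above 9. The 6 libraries held 27201038 to 32994595 counts, and each member had between 456 and 32137 counts in each library.

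Activating Fc gamma receptors bind the Fc part of antibodies on a coated target. Each of the 3 activating receptors assembles with a dimer of the Fcer1g chain, whose cytoplasmic tail carries an immunoreceptor tyrosine-based activation motif (ITAM). Src-family kinases phosphorylate the ITAM, Syk docks on it, and phagocytosis and cytokine release follow. Fcgr2b also binds the Fc part of antibodies, but carries an inhibitory motif (ITIM) that recruits the lipid phosphatase Inpp5d (SHIP-1). Fcgrt is related to MHC class I, pairs with B2m and salvages IgG and albumin in acidic endosomes.

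The coding stretches that hold these motifs are shown because the split into activating and inhibitory genes rests on them. Both were read from GENCODE M21 transcripts on GRCm38 and lie on the minus strand of chromosome 1, and the capitals mark tyrosine codons. The ITAM stretch of Fcer1g (chr1:171229880-171230081) crosses an intron and has 2 tyrosine codons, whereas the ITIM stretch of Fcgr2b (chr1:170961062-170961097) lies in a single exon and has 1.
Fcer1g ITAM codons: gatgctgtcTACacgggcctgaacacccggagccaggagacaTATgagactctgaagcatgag
Fcgr2b ITIM codons: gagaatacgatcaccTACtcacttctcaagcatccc
A search of the 6 reading frames for the ITAM spacing found it in Fcer1g, 22 codons before the end, and in none of the other 5. The looser ITIM spacing was matched in Fcgr2b 24 codons before the end and also elsewhere in Fcgr1, Fcgr4, Fcer1g and Fcgrt, so that a match of the spacing alone does not mark an inhibitory gene.

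All 6 genes were lower in heme-treated than in control BMDMs. Fcgr1 and Fcgr2b fell most, 4.02-fold and 3.99-fold, Fcgrt fell 2.35-fold, Fcer1g 1.54-fold and Fcgr4 1.44-fold, and the smallest change was that of Fcgr3, 1.24-fold. Each of the 6 passed the filter on low counts and was called by edgeR's quasi-likelihood test at an adjusted p (Benjamini-Hochberg over 12433 tested genes) under 0.05. Over all tested genes, 62.5% were called, 30.8% as lower and 31.7% as higher, and the groups did not overlap for 68.8%, with heme lower for 34.0%; the call of a single gene was therefore common in these data. The median log2 fold change was -0.93 over the 6 genes and 0.00 over all tested genes, and 3 of the 6 had a value of -1 or less, which 8.42% of tested genes reached with a call. As the 6 genes were chosen with results of these data known, these values describe them only. In bulk RNA, fewer cells of a type and less RNA per cell cannot be told apart.

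**Figure D1:**
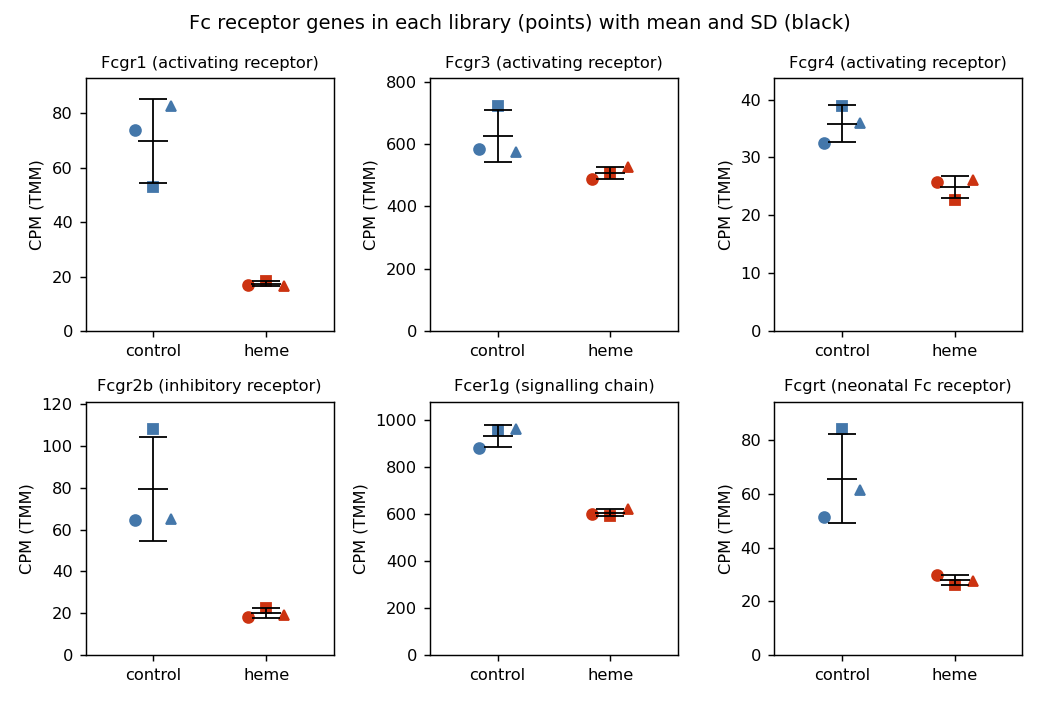
TMM-normalized CPM (y axis, from 0) of the 6 genes in each of 3 control and 3 heme libraries; points are libraries (circle, square and triangle for replicates 1, 2 and 3), and black bars are the mean and SD. In every panel the 3 heme libraries lie below the 3 control libraries, and the control libraries of Fcgr1, Fcgr2b and Fcgrt are spread more widely than the heme libraries.

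Fcgr1 encodes CD64, the receptor that binds monomeric IgG with high affinity (ENSMUSG00000015947, GRCm38 chr3:96282909-96293969, minus strand). Its level was 73.9, 52.9 and 82.8 CPM (counts relative to the library total, normalized by TMM) in control libraries 1, 2 and 3 and 17.1, 18.4 and 16.7 CPM in heme libraries 1, 2 and 3. The heme libraries lay close together and far below the lowest control library. The mean went from 69.9 ± 15.3 to 17.4 ± 0.887 CPM (SD, n = 3 each), a log2 fold change of -2.01 ± 0.15 (SE, edgeR adjusted p = 2.82e-06), and 2.36% of tested genes had a lower value.

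Fcgr3 encodes the mouse CD16, a receptor of low affinity for immune complexes (ENSMUSG00000059498, GRCm38 chr1:171051174-171064935, minus strand). Fcgr3 was at 583, 723 and 574 CPM in the controls and at 488, 508 and 527 CPM with heme. The groups did not overlap, but control library 2 stood well above the other controls. The change was small, from 627 ± 83.8 to 507 ± 19.6 CPM (SD, n = 3 each), with a log2 fold change of -0.30 ± 0.09 (SE, edgeR adjusted p = 0.0185). This call did not hold without heme replicate 1 (-0.28 on the log2 scale, edgeR adjusted p = 0.0742) or without heme replicate 2 (-0.30, edgeR adjusted p = 0.0514). Without control replicate 2 the log2 fold change was -0.20 (edgeR adjusted p = 0.0284), and it was -0.53 when libraries were scaled by their totals alone.

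Fcgr4 encodes the CD16-2 receptor, which binds IgG2a and IgG2b (ENSMUSG00000059089, GRCm38 chr1:171018920-171029761, plus strand). The controls had 32.5, 39.0 and 36.0 CPM and the heme libraries 25.8, 22.7 and 26.0 CPM. All heme values were below all control values, with a mean of 35.8 ± 3.23 against 24.8 ± 1.88 CPM (SD, n = 3 each). The log2 fold change was -0.53 ± 0.09 (SE, edgeR adjusted p = 0.000649).

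Fcgr2b, the only inhibitory Fc gamma receptor (ENSMUSG00000026656, GRCm38 chr1:170958617-170976547, minus strand), fell about as far as Fcgr1. Its values were 64.8, 108 and 65.0 CPM in the controls and 18.0, 22.6 and 19.2 CPM with heme. Control library 2 was again the highest, while for Fcgr1 it was the lowest of the controls. The mean went from 79.3 ± 24.9 to 19.9 ± 2.41 CPM (SD, n = 3 each), the log2 fold change was -2.00 ± 0.20 (SE, edgeR adjusted p = 1.92e-05), and 2.4% of tested genes had a lower value.

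Fcer1g, the chain shared by the activating receptors (ENSMUSG00000058715, GRCm38 chr1:171229572-171234365, minus strand), had 879, 959 and 961 CPM in the controls and 600, 593 and 621 CPM with heme. Both groups were tight and far apart. The means were 933 ± 46.8 and 604 ± 15.0 CPM (SD, n = 3 each), with a log2 fold change of -0.63 ± 0.07 (SE, edgeR adjusted p = 3.49e-05).

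Fcgrt, the only one of the 6 on chromosome 7 (ENSMUSG00000003420, GRCm38 chr7:45092990-45103851, minus strand), had 51.4, 84.1 and 61.6 CPM in the controls and 29.9, 26.1 and 27.7 CPM with heme. The controls differed among themselves more than the heme libraries did, yet did not reach down to them. The mean went from 65.7 ± 16.7 to 27.9 ± 1.93 CPM (SD, n = 3 each), a log2 fold change of -1.23 ± 0.16 (SE, edgeR adjusted p = 0.000105).

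The exact two-sided permutation test of the CPM gave p = 0.1 for each of the 6 genes, the smallest value that 3 against 3 libraries allow. That value follows from the lack of overlap alone. The edgeR p-values set the change against the spread between these libraries, which holds differences between mice and between cultures.

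**Figure D2:**
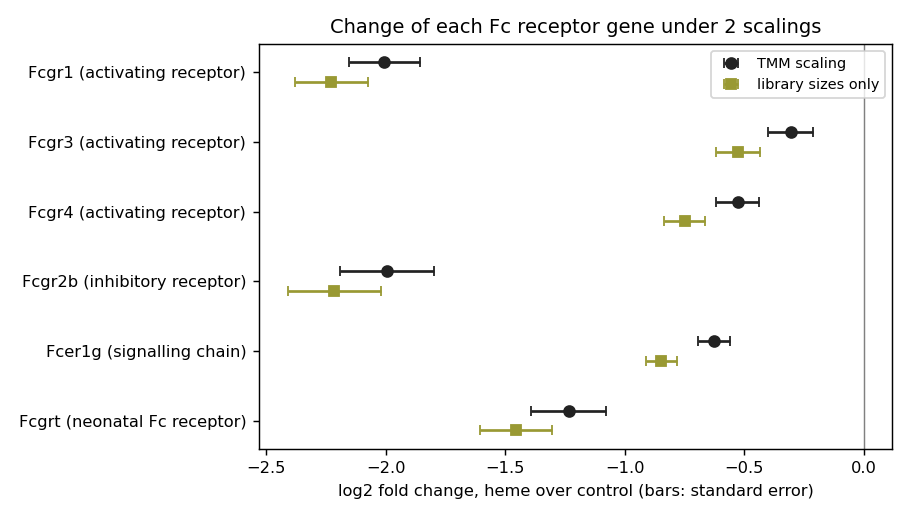
Log2 fold change (x axis, heme over control) of each of the 6 genes with its standard error, under TMM scaling (black circles) and under scaling by library totals alone (olive squares), n = 3 libraries a group. All 12 estimates are below 0, Fcgr1 and Fcgr2b lie near -2 and Fcgr3 lies nearest to 0 under both scalings.

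To compare levels between genes, CPM were divided by the length of each gene's merged exons in kb. In the controls Fcer1g was the highest at 1067 ± 53.5 CPM per kb (SD, n = 3, as for the values that follow), then Fcgr3 at 361 ± 48.3. Fcgrt (31.3 ± 7.95), Fcgr4 (28.5 ± 2.57) and Fcgr1 (27.0 ± 5.92) were neighbors whose ranges overlapped. Fcgr2b was the lowest at 13.7 ± 4.31, and its range lay below that of Fcgr1 by merged exon length but overlapped it when the longest protein-coding transcript gave the length (18.3 to 30.5 against 20.4 to 32.0 CPM per kb). With heme the order was Fcer1g (692 ± 17.2), Fcgr3 (292 ± 11.3), Fcgr4 (19.8 ± 1.49), Fcgrt (13.3 ± 0.916), Fcgr1 (6.72 ± 0.343) and Fcgr2b (3.44 ± 0.416), and no neighbors overlapped. Fcgr1 thus moved from a level like that of Fcgr4 to one below it in every library.

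Because the activating and the inhibitory genes both fell, their ratio was taken within each library, where it does not depend on how libraries are scaled. The summed level per kb of Fcgr1, Fcgr3 and Fcgr4 over that of Fcgr2b was 34.8, 25.1 and 34.9 in the controls and 99.4, 81.4 and 99.8 with heme. The ratio was higher in all 3 heme libraries than in any control library, 31.6 ± 5.65 against 93.5 ± 10.5 (SD, n = 3 each), a difference of 1.58 on the log2 scale or 2.98-fold. The exact two-sided permutation test gave p = 0.1, the smallest possible, and 0.125 after Benjamini-Hochberg adjustment over the 5 ratios computed. With the length of the longest transcript the ratio itself was lower, 24.2 ± 4.21 against 72.4 ± 8.10 (SD, n = 3 each).

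Each activating receptor was then set against Fcgr2b alone. Fcgr3 over Fcgr2b was 30.0, 22.3 and 29.4 in the controls and 90.6, 74.9 and 91.6 with heme, 3.16-fold higher. Fcgr4 over Fcgr2b was 2.31, 1.66 and 2.55 against 6.62, 4.63 and 6.26, 2.69-fold higher. Neither ratio overlapped between the groups (exact permutation p = 0.1 each, 0.125 adjusted over the 5 ratios). Fcgr1 over Fcgr2b was 2.55, 1.09 and 2.85 in the controls and 2.13, 1.82 and 1.95 with heme, so that the heme libraries lay within the control range (difference of -0.02 on the log2 scale; exact permutation p = 1). Its direction turned when single libraries were left out: the difference was 0.15 without control replicate 1, 0.23 without control replicate 3 and 0.03 without heme replicate 2.

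**Figure D3:**
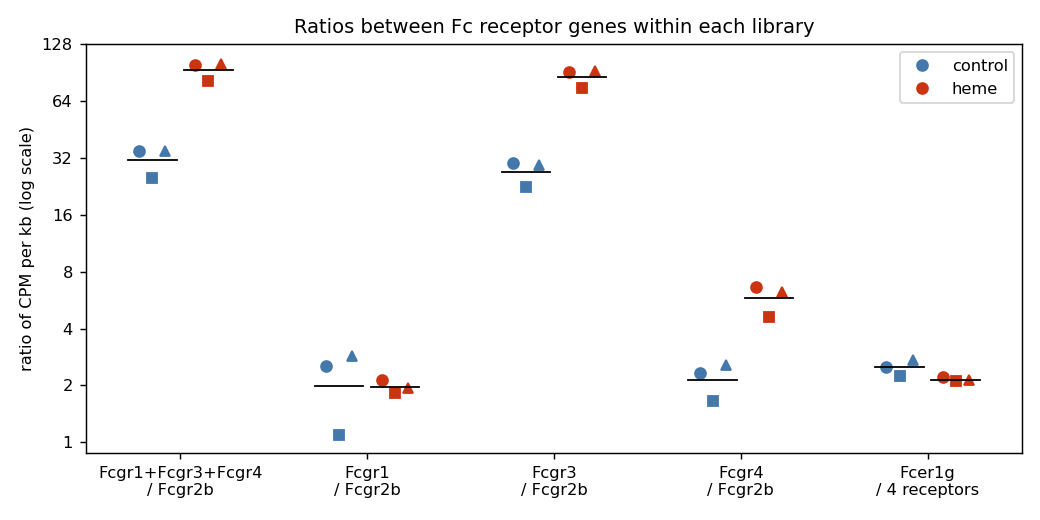
Ratios of CPM per kb (y axis, log scale) within each of 3 control (blue) and 3 heme (red) libraries, with replicate numbers as circle, square and triangle and black lines at the group means of the log2 ratios. The summed, the Fcgr3 and the Fcgr4 ratios over Fcgr2b are higher in every heme library, the Fcgr1 ratio overlaps, and Fcer1g over the 4 receptors is slightly lower with heme.

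The receptor pool was mostly Fcgr3 in both groups. Its share of the summed level per kb of the 4 Fc gamma receptors was 83.8% ± 1.73 in the controls and 90.7% ± 0.365 with heme (SD, n = 3 each). The share of Fcgr1 went from 6.42% ± 1.97 to 2.09% ± 0.142 and that of Fcgr2b from 3.14% ± 0.604 to 1.07% ± 0.127, without overlap. The share of Fcgr4 overlapped between the groups (6.65% ± 0.409 and 6.14% ± 0.495). The sum itself was 430 ± 49.0 CPM per kb in the controls and 322 ± 11.5 with heme, and every heme library was below every control library.

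The chain was also set against the receptors that it serves and Fcgr2b together. The Fcer1g level per kb over that of the 4 summed receptors was 2.51, 2.25 and 2.73 in the controls and 2.20, 2.11 and 2.13 with heme. The groups did not overlap, although control library 2 was close to heme library 1 (0.863-fold; exact permutation p = 0.1, 0.125 adjusted over the 5 ratios). The difference was -0.21 on the log2 scale, but -0.12 when levels were not divided by length, and it ranged from -0.29 to -0.15 with 1 library left out. These are RNA ratios, and the amount of receptor on the cell surface was not measured.

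Fcgr3 and Fcgr2b are close relatives, which bears on how reads could be assigned. Their coding sequences were identical at 81.7% of 756 aligned bases, with a longest identical run of 129 bases. Of the stretches of 50 bases in Fcgr3 transcripts, 9.58% also occurred in another gene, which was Fcgr2b in each case; of stretches of 100 bases it was 2.54%. For Fcgr2b, 4.38% of stretches of 50 bases occurred in other genes. Fcgr1, Fcgr4, Fcer1g and Fcgrt shared none. How reads that fit both genes were counted is not given in the sources used here, and the part of such reads in the values of Fcgr3 and Fcgr2b was not tested. Fcgr2b also overlaps Gm38204 on the other strand by 155 exonic bases, and the strand setting of the counting is not given.

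Fcgr2b, Fcgr4, Fcgr3 and Fcer1g lie in this order within 275.7 kb of chromosome 1. Their log2 fold changes were -2.00, -0.53, -0.30 and -0.63. Of the 22 other tested genes within 200 kb of one of these 4, 9 were called lower, 1 higher and 12 neither, beside the 30.8% and 31.7% over all tested genes. Pcp4l1, between Fcgr3 and Fcer1g, had a lower log2 fold change than any of the 4 (-3.96, edgeR adjusted p = 2.72e-09), as had Nectin4 (-2.54, edgeR adjusted p = 1.47e-07). Sdhc, which encodes a subunit of mitochondrial complex II and also lies between Fcgr3 and Fcer1g, had -0.01 (edgeR adjusted p = 0.843), and Atf6, a sensor of endoplasmic reticulum stress, rose by 0.59 (edgeR adjusted p = 3.12e-05). Around Fcgr1, 4 of 9 tested genes within 200 kb were called lower and 1 higher. Around Fcgrt, 11 of 23 were called lower and 0 higher. Some neighbors share exonic bases, and their calls may not be independent. Near Fcgrt, Rpl13a and Gm45713 share 621 on the same strand. On chromosome 1, Tomm40l and Nr1i3 share 3304 on opposite strands. By scaling with library totals alone Sdhc was called lower as well (-0.24, edgeR adjusted p = 0.0079).

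**Figure D4:**
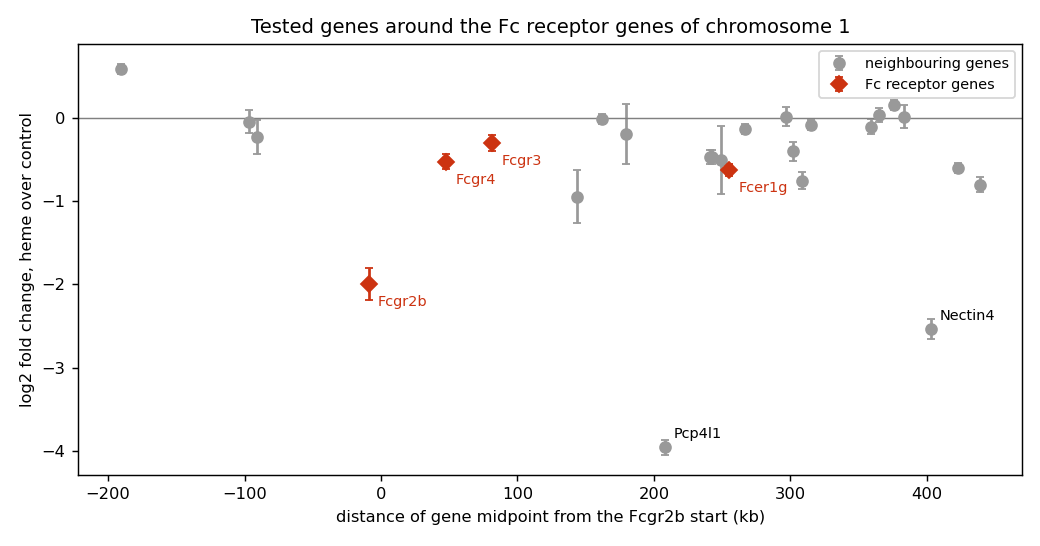
Log2 fold change with its standard error (y axis) of the tested genes around the Fc receptor genes of chromosome 1, by the distance of the gene's midpoint from the start of Fcgr2b in kb (x axis); red diamonds are the 4 Fc receptor genes and gray circles the 22 neighbors. Most neighbors lie between -1 and 0.6, and Pcp4l1 and Nectin4 lie below all others.

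The 250 bases upstream of the RefSeq start (GRCm38.p6) were searched for 4 motifs on both strands. The windows of the 4 Fc gamma receptors are shown because the ratios above rest on these genes, and the capitals mark matches to the GAS-type motif TTCNNNGAA, named for interferon gamma-activated sequences, and to the PU-box GAGGAA, which PU.1 binds and which reads as TTCCTC on the other strand. The windows are chr3:96293970-96294219 for Fcgr1, chr1:170976072-170976321 for Fcgr2b, chr1:171059404-171059653 for Fcgr3 (all minus strand) and chr1:171018676-171018925 for Fcgr4 (plus strand). The RefSeq starts of Fcgr2b and Fcgr3 lie inside the GENCODE gene spans given above, and so do their whole windows. The starts of Fcgr4, Fcer1g and Fcgrt lie inside the spans as well, but only a small part of each of their windows does.
Fcgr1 upstream: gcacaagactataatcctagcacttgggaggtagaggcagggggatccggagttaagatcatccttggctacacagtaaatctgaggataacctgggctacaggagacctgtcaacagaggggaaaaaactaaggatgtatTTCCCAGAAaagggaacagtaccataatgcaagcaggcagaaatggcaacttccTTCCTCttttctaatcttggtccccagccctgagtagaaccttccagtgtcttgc
Fcgr2b upstream: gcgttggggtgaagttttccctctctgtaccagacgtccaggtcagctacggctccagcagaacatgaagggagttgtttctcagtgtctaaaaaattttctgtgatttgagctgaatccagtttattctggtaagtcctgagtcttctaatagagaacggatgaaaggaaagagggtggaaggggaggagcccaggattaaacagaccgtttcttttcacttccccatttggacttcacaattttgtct
Fcgr3 upstream: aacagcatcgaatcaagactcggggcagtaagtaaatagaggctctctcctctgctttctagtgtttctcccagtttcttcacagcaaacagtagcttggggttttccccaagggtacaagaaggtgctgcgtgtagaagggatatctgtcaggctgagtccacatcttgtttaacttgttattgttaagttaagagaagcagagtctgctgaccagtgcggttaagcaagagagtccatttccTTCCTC
Fcgr4 upstream: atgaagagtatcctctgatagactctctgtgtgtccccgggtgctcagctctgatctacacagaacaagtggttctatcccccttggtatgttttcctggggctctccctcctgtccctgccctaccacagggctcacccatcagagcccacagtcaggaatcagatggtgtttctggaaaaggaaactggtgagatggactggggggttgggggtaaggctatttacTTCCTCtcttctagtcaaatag
Fcgr1 had a GAS-type match beginning 109 bases before its start and a PU-box 55 bases before it. Fcgr3 and Fcgr4 had a PU-box 6 and 22 bases before the start, and Fcgr4 also matched the ISRE-type motif (GAAA, any 2 bases, GAAA), bound by IRF factors, 73 bases before it. Fcgrt matched only the ARE-type motif TGACNNNGC, bound by NRF2 with small MAF proteins, 223 bases before its start. Fcgr2b and Fcer1g matched none of the 4 in this window, and no matches overlapped each other. Among 27025 promoters, 7.18% held the GAS-type motif, 23.1% the PU-box, 3.04% the ISRE-type and 10.1% the ARE-type motif; a match is a description of the letters only.

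Factors and cytokine receptors known to control Fc receptor genes were listed by name. Of the 18 genes, all tested, 11 were called lower, 4 higher and 3 neither, with a median log2 fold change of -0.41. The interferon gamma receptor chain Ifngr1 had a log2 fold change of -1.18 (edgeR adjusted p = 3.69e-06), Irf1 of -1.11 (edgeR adjusted p = 4.82e-05) and Irf8 of -0.87 (edgeR adjusted p = 3.12e-05). Receptors for other cytokines also moved: Il10ra and Tgfbr2 were lower and Il4ra was higher (log2 fold changes -1.71, -1.40 and 0.76, edgeR adjusted p = 5.98e-06, 4.16e-07 and 1.49e-05). Spi1, which encodes PU.1, was at 300.8 ± 18.8 and 291 ± 4.53 CPM (SD, n = 3 each, log2 fold change -0.04, edgeR adjusted p = 0.571). By library totals alone Spi1 was called lower (-0.27, edgeR adjusted p = 0.00412). Cebpb, a factor of myeloid cells, rose by 1.58 (edgeR adjusted p = 7.7e-07), but overlaps Tmem189 on the other strand by 312 exonic bases, and Tmem189 had more counts.

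The tyrosine kinases next to the receptors moved in both directions. Of 9 tested Src-family and Syk kinases and their regulators, 3 were called lower, 4 higher and 2 neither by TMM scaling, whereas 5 were lower and 2 higher by library totals alone, and 5 were lower without control replicate 2. Src rose from 2.99 ± 0.629 to 22.0 ± 1.16 CPM and Fgr from 12.7 ± 1.91 to 44.7 ± 5.08 CPM (SD, n = 3 each; log2 fold changes 2.88 and 1.82, edgeR adjusted p = 2.15e-07 and 1.45e-06). Cblb, a ubiquitin ligase that restrains receptor signaling, had a log2 fold change of -1.96 (edgeR adjusted p = 5.21e-08), and Csk, the kinase that holds Src-family members inactive, had -0.44 (edgeR adjusted p = 0.000438). Syk, which docks on the ITAM, had 0.36 and Lyn 0.35 (edgeR adjusted p = 0.00256 and 0.00334), but by library totals alone neither was called (0.14 and 0.13, edgeR adjusted p = 0.106 and 0.183).

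Downstream of the kinases, 10 of 21 adaptor, phospholipase, protein kinase and PI3K genes were called lower, 5 higher and 6 neither, with a median of -0.00. The adaptor Lat, best known from T cells, went from 0.573 ± 0.141 to 8.96 ± 1.80 CPM, and Lcp2 (SLP-76) from 60.0 ± 2.74 to 135 ± 11.2 CPM (SD, n = 3 each; log2 fold changes 3.95 and 1.17, edgeR adjusted p = 5.47e-07 and 1.15e-06). The catalytic PI3K subunits Pik3cb and Pik3cd changed in opposite directions (1.35 and -1.08, edgeR adjusted p = 3.15e-06 and 3.52e-07). Of 27 genes of the actin machinery that closes the phagocytic cup, 11 were called lower, 2 higher and 14 neither, while by library totals alone 20 were lower and 0 higher, and without control replicate 1 5 were higher. Mylk, the myosin light chain kinase, fell by 3.89 from a low level (3.47 ± 1.07 to 0.225 ± 0.109 CPM, SD, n = 3 each, edgeR adjusted p = 1.35e-05). Myo10, an unconventional myosin of pseudopods, and Rac1 were also lower (log2 fold changes -0.89 and -0.54, edgeR adjusted p = 5.83e-05 and 7.03e-05), although Rac1 shares 2309 exonic bases with Daglb on the other strand. Coro1a, an actin-binding coronin, rose by 0.49 (edgeR adjusted p = 0.00322), but was not called by library totals alone (0.27, edgeR adjusted p = 0.0635).

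Genes that act after Fcgr2b moved in both directions. Of 8 phosphatases and Dok adaptors, 2 were called lower, 3 higher and 3 neither, while by library totals alone 1 was higher. Inpp5d, which the ITIM recruits, had 0.29 (edgeR adjusted p = 0.00389; by library totals alone 0.07, edgeR adjusted p = 0.345), and its relative Inppl1 fell by 1.05 (edgeR adjusted p = 4.15e-06). Ptpn6 (SHP-1) fell by 0.41 and Dok2 rose by 0.89 (edgeR adjusted p = 0.000549 and 0.00633). The adaptor Dok3 rose by 0.40 (edgeR adjusted p = 0.00481), but was not called by library totals alone (0.17, edgeR adjusted p = 0.117). Among 16 tested ITIM receptors of myeloid cells other than Fcgr2b, 6 were called lower, 8 higher and 2 neither, with a median of 0.22. The lectin Clec4a2 rose by 2.14, whereas the sialic acid receptor Cd33 had -2.12 and the lectin Clec12a -2.09 (edgeR adjusted p = 1.87e-08, 1.81e-06 and 5.86e-07), the latter 2 about as much as Fcgr2b. Pecam1 (CD31) rose by 1.79 at a low level (0.326 ± 0.0926 to 1.13 ± 0.149 CPM, SD, n = 3 each, edgeR adjusted p = 0.000481).

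**Figure D5:**
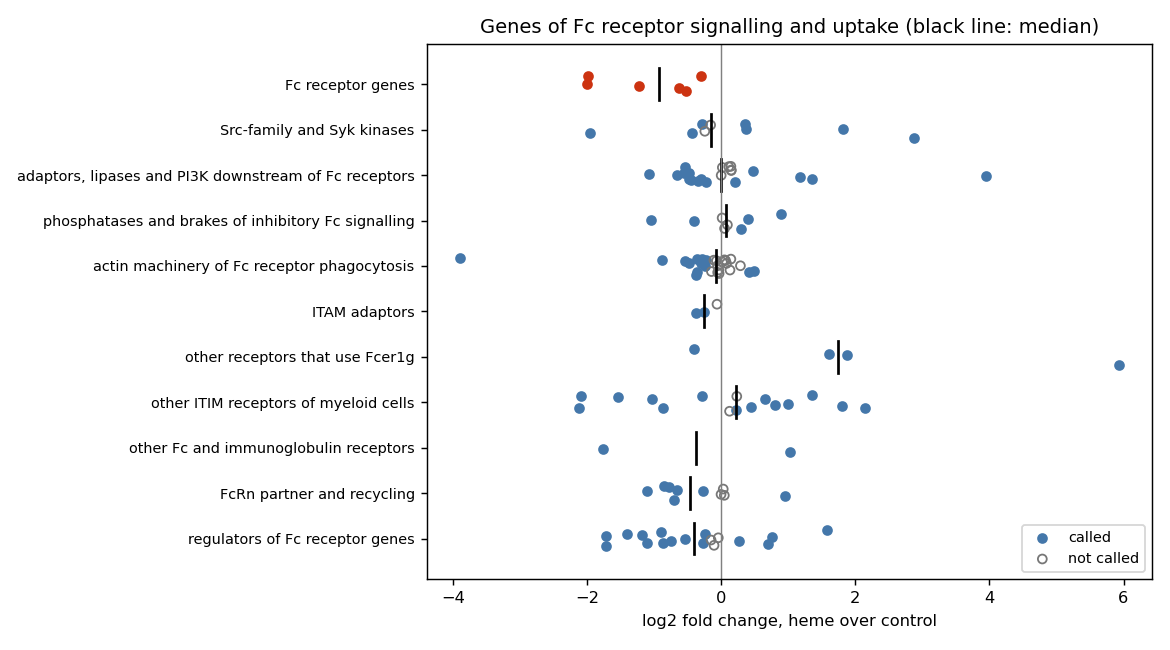
Log2 fold change (x axis, heme over control, n = 3 libraries a group) of the tested genes of each list (rows), with the 6 Fc receptor genes in red at the top; filled points were called by edgeR, open points were not, and black lines are medians. The 6 Fc receptor genes all lie below 0, most other lists have called genes on both sides, and Clec4n stands at the far right of the receptors that use Fcer1g.

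Fcer1g also serves receptors that do not bind IgG. The list named 12 such genes, of which 8 matched an identifier and 4 were tested. The lectin Clec4n (Dectin-2) rose from 28.1 ± 6.57 to 1723 ± 58.8 CPM (SD, n = 3 each; log2 fold change 5.94, edgeR adjusted p = 9.7e-09). Clec4e (Mincle) and Clec4d rose by 1.88 and 1.61 (edgeR adjusted p = 6.47e-08 and 4.32e-07), and Pira2 fell by 0.41 (edgeR adjusted p = 0.0038). The summed level of the list was 616 to 740 CPM in the controls and 3552 to 3745 CPM with heme, while Fcer1g fell. Of the other ITAM adaptors, Tyrobp (DAP12) fell from 656 ± 53.0 to 549 ± 15.5 CPM (SD, n = 3 each; -0.26, edgeR adjusted p = 0.0136) and Cd247 had -0.37 (edgeR adjusted p = 0.0239), but neither was called without heme replicate 3 (edgeR adjusted p = 0.0596 and 0.0988). Cd247 overlaps Pou2f1 on the other strand by 3007 exonic bases and also lost its call without control replicate 3 or heme replicate 1 (edgeR adjusted p = 0.0768 and 0.066). Hcst (DAP10), whose tail holds a PI3K-binding motif and no ITAM, had -0.06 (edgeR adjusted p = 0.729), and Cd3e had no count in any library.

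For Fcgrt, the partner B2m fell as well, from 1970 ± 200 to 1207 ± 46.2 CPM (SD, n = 3 each; log2 fold change -0.71, edgeR adjusted p = 9.25e-05). Of 10 tested genes of this partner and of endosome recycling, 6 were called lower, 1 higher and 3 neither, with a median of -0.47. The sorting nexin Snx2 had a log2 fold change of -1.10, Rab11fip5 of -0.86, the early endosome protein Eea1 of -0.78 and the recycling protein Ehd1 of 0.95 (edgeR adjusted p = 6.81e-05, 3.05e-05, 2.93e-05 and 0.000107). Other Fc and immunoglobulin receptors were mostly below the filter, with 10 of 12 not tested. Trim21, the cytosolic IgG receptor, fell from 28.4 ± 2.27 to 8.33 ± 0.925 CPM, and Fcrl1 rose from 29.1 ± 2.25 to 58.9 ± 5.46 CPM (SD, n = 3 each, edgeR adjusted p = 6.37e-07 and 7.55e-06).

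Across all these lists, 53 of 118 tested genes other than the members were called lower, 31 higher and 34 neither, with a median of -0.09. By library totals alone 73 were lower and 21 higher. Over all tested genes, 30.8% were called lower and 31.7% higher by TMM scaling, and the counts of the single lists stand beside the same shares. Lists and members were chosen with results of these data known, and the counts describe them only.

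For each member, the 3 genes with the most similar pattern were sought among genes with an average log2 CPM of at least 3, by the root mean square difference over the 6 libraries of log2 CPM relative to the control mean. For Fcgr1 they were Ifi47 (0.123), Trim30a (0.132) and Cenpf (0.138), and for Fcgr2b Mertk (0.114), Blnk (0.154) and Kif3a (0.163). For Fcgrt they were Pink1 (0.071), Crebrf (0.0807) and Enc1 (0.105). Nearest to Fcgr3 were Zfp740, Als2cl and Eif3f, to Fcgr4 Tprgl, Rab40c and Tbc1d8, and to Fcer1g Ak3, Git2 and Rragc, all at 0.0311 to 0.041. The larger distances belonged to the members with the larger changes.

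Markers of the macrophage and of other cells that use these receptors were read beside the members. The 7 macrophage markers were all present, with a summed level of 31710 to 37520 CPM in the controls and 36220 to 39490 CPM with heme, most of it Lyz2; 5 of the 7 were called lower, among them Adgre1 (F4/80, -0.60), Csf1r (-0.61), Cd14 (-1.56) and Mertk (-1.91), Itgam was called higher (0.42) and Lyz2 was not called (edgeR adjusted p = 0.000128, 0.00237, 2.49e-06, 1.03e-05, 0.00271 and 0.122). B cells use Fcgr2b, and 8 B cell markers summed to 1.68 to 2.07 CPM in the controls and 0.624 to 1.04 CPM with heme, nearly all of it Cd79b, with Fcer2a at 0 in every library. NK cells use Fcgr3, and their 8 markers summed to at most 0.66 CPM, with Gzma and Klra8 at 0. The 8 dendritic cell markers summed to at most 2.00 CPM.

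The summed levels of neutrophil and of mast cell or basophil markers were higher in every heme library than in any control library. The 12 neutrophil markers summed to 61.5 to 120 CPM in the controls, most of it Csf3r, and to 126 to 168 CPM with heme, where 7 of 9 tested were called higher, Csf3r was called lower (-1.08, edgeR adjusted p = 0.00258) and Mmp9 was not called. Mpo, a granule enzyme of early neutrophils, had 1 count over the 3 control libraries and 22.3 ± 7.91 CPM with heme (SD, n = 3). The 8 mast cell and basophil markers summed to 0.149 to 0.249 CPM in the controls and 2.13 to 3.41 CPM with heme, where 2 were tested and both were called higher, with Mcpt4, Tpsb2 and Cma1 at 0 in every library. The part of these cells or transcripts, and of the lower macrophage markers, in the values of the 6 genes was not tested.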

How the data were processed

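Bulk RNA-Seq covered 3 control and 3 heme BMDM cultures. The deposited values are raw read counts for each Ensembl gene; according to the submitters' processing notes, featureCounts, STAR 2.7.0 and the assembly GRCm38.p5 were used. The annotation release, strand setting and handling of reads that fit several genes were not given in the sources used here. Symbols came from GENCODE M21 (25664 of 25700 identifiers; the other 36 held 0.0481% of counts). In R 4.3.3, edgeR 4.0.16 filtered genes (filterByExpr, minimum count 10), scaled libraries by TMM and compared heme with control by its quasi-likelihood test, with Benjamini-Hochberg adjustment over 12433 genes and a threshold of 0.05. The procedure was tested on simulated data. It called 12 of 12151 unchanged genes, 38 of 50 with a log2 fold change of 0.5 and 44 of 49 with -1. A far smaller part of the genes changed there than the 62.5% called in these data, so the simulation cannot decide how the scaling acts here. The SE given with each edgeR log2 fold change was computed from that estimate and the F statistic of its test. Ratios were tested by exact permutation.

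The members and lists were chosen with earlier results of these data known. Named genes were all members, up to 4 called genes with the largest change per list and all genes of lists of up to 6, the 3 most similar genes per member, and tested neighbors within 200 kb. Syk, Lyn, Inpp5d, B2m, Spi1, Irf1, Irf8, Ifngr1 and Il4ra were added to these after the values had been seen. In the lists, 135 of 140 symbols other than the members matched an identifier. The alternatives were DESeq2 1.42.0, limma-voom (limma 3.58.1), other scalings and filters, a replicate block, other gene lengths and leaving out each library. Results of some listed genes are left out of the text.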

Additional observations from a re-analysis of the deposited data

How the results depend on the processing

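All 6 members stayed lower with heme under every alternative, and 82 of 84 values kept their call; the exceptions were Fcgr3 without heme replicate 1 and without heme replicate 2 (-0.28 and -0.30, edgeR adjusted p = 0.0742 and 0.0514). With 1 library left out, the log2 fold change ranged from -2.18 to -1.87 for Fcgr1, from -0.37 to -0.20 for Fcgr3, from -0.60 to -0.47 for Fcgr4, from -2.13 to -1.72 for Fcgr2b, from -0.67 to -0.61 for Fcer1g and from -1.39 to -1.03 for Fcgrt. Scaling by library totals alone moved the median of all tested genes to -0.22 and called 5814 genes lower and 2580 higher, in place of 3831 and 3938. The log2 difference in the activating to inhibitory ratio ranged from 1.42 to 1.67 with 1 library left out, but that of Fcgr1 alone over Fcgr2b was -0.024, and it ranged from -0.46 to 0.23 with 1 library left out (0.15 without control replicate 1, 0.23 without control replicate 3 and 0.03 without heme replicate 2); the cause was not tested.

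Replicate numbers are shared between the groups, but the residuals of same-numbered libraries had correlations of -0.0998, -0.142 and -0.0683. The labels do not say whether same-numbered libraries share a mouse, and the replicate block was run only as an alternative. The log2 difference of the activating to inhibitory ratio within numbers 1, 2 and 3 was 1.51, 1.70 and 1.52. Library 2 had the highest Fcgr2b of its group in both groups, but for Fcgr1 and Fcgrt it was at opposite ends. The block lowered the SE for Fcgr2b (0.20 to 0.11) but raised it for Fcgr4 (0.089 to 0.103) and Fcer1g (0.068 to 0.082). With the block 3493 genes were called lower and 3671 higher, the log2 fold change of Fcgr3 was -0.30 (edgeR adjusted p = 0.0283), and all 6 members kept their call. The depth, with a limit of 3 counts at 0.0829 to 0.118 CPM, does not restrict the members, whereas 3 libraries a group keep the exact tests of the ratios at p = 0.1 or above.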
